A study of Mus musculus with 6 samples.

Results

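The 32 genes described here belong to the p53 pathway: the gene of p53 itself, its main negative regulators, and targets that p53 is known to induce. They were taken by symbol from the 55446 genes of a single table in which the submitters compared RNA from crypts of the mouse ileum, the last stretch of the small intestine. All 32 were found, each under 1 identifier, none had the status for excess data, and all were among the 15762 genes that the authors tested. Per the labels, 3 libraries came from Adar iΔgut mice, which carry floxed Adar alleles and Villin-CreERT2, a Cre recombinase that tamoxifen activates and that the villin promoter directs to the intestinal epithelium. The other 3 libraries came from Adar fl/fl mice, which carry the floxed alleles without Cre. Both genotypes received tamoxifen, and day 3 is the time given. Cells other than epithelium do not lose Adar in this model, and no source used here gives the age or strain of the mice. ADAR edits double-stranded RNA by turning adenosines into inosines.

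The table holds 1 FPKM value per gene for a condition labelled TMX and 1 for a condition labelled con. FPKM is a level corrected for transcript length and library size. Tamoxifen went to both genotypes, so TMX could be read as Adar iΔgut, and con as Adar fl/fl, only by elimination. The level of the targeted gene goes against that reading, but the difference was not called. Adar stood in the authors' deposited table at 52.0 FPKM in TMX and 19.5 FPKM in con (q = 0.0575). The locus given for Adar differs from the annotated gene, which overlaps Chrnb2 on the other strand, so its FPKM is less certain. Directions below are therefore those of TMX as labelled. Which exons were floxed was not looked up here, and the FPKM of a gene includes any exons left in place. No value per library was used, so no standard deviation stands beside an FPKM, the depth is unknown, and differences were judged by the authors' p-values and q-values, with a call at a q under 0.05. The summed FPKM of all genes was 539762 in TMX and 632180 in con in the authors' deposited table.

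The transcription factor p53 is held at low levels in unstressed cells by the ubiquitin ligase Mdm2 and its relative Mdm4, and it is stabilised mainly at the protein level after DNA damage and other stress. It then induces genes that stop the cell cycle, repair DNA, change metabolism and autophagy, or start cell death, and it induces Mdm2, which closes a feedback loop. In intestinal crypts, p53 is best known for the response of stem and progenitor cells to radiation.

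Binding sites of p53 are built from pairs of a 10-base decamer whose consensus is its own reverse complement, so that 1 search reads both strands. The decamer was searched, with no mismatch, in RefSeq promoter windows of GRCm38.p6 that run from 250 bases before to 50 bases after an annotated start. These were given for 25 of the 32 genes, with 39 windows. A decamer was found for 10 of the 25 genes (Trp53, Mdm2, Cdkn1a, Ccng1, Gtse1, Polk, Sesn1, Aen, Ei24 and Rps27l), which is 40%, beside 9.55% of all 27025 genes with a window. Of single windows, 8.36% of 32851 held it. A gene with more windows has more chances to hold a decamer, and the share over the 39 windows was not computed. Windows are shown with the decamer in capitals, for p53 itself, for its inhibitor Mdm2, for the arrest gene Cdkn1a, for Aen, which rose in TMX, and for the second start of Sesn1, which fell.
Trp53, chr11:69580109-69580408, plus strand: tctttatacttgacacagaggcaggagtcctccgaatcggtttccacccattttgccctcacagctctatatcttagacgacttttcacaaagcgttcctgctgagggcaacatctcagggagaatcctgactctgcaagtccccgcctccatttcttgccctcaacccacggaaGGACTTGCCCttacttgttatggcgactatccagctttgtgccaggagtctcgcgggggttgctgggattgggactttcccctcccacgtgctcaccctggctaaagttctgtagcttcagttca
Mdm2, chr10:117710709-117711008, minus strand: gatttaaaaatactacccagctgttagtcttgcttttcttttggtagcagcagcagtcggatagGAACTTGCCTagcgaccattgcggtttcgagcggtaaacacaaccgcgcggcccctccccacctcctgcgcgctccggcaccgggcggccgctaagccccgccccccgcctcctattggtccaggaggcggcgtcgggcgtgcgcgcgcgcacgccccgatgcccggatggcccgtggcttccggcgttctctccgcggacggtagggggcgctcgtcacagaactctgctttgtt
Cdkn1a, chr17:29090729-29091028, plus strand: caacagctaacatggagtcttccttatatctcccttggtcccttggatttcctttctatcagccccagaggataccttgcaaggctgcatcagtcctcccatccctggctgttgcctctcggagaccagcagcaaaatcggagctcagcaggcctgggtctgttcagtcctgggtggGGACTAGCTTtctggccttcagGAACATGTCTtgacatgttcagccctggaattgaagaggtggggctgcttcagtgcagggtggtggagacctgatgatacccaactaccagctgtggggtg
Aen, chr7:78895677-78895976, plus strand: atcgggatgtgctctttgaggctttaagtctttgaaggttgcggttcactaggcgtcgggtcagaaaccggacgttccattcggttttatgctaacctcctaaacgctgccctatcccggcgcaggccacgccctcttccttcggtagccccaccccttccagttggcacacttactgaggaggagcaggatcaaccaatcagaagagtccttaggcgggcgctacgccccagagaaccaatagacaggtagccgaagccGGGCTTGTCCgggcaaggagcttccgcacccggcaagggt
Sesn1, chr10:41887189-41887488, plus strand: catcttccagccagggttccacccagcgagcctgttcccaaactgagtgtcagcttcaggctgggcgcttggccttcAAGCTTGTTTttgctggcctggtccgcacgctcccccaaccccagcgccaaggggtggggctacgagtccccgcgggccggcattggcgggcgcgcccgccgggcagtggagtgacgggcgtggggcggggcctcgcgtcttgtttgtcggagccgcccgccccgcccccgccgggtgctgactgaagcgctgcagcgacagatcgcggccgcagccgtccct

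In the Cdkn1a window shown, 2 decamers without mismatch lie within 13 bases of each other. This layout was found for 0.0740% of all genes with a window and for no other of the 25. The other Cdkn1a window, chr17:29093519-29093818, held no decamer. Allowing up to 2 mismatches over 2 adjoining decamers, which make 20 bases, a match was found for 4 of the 25 genes, beside 0.940% of all genes. These 4 sites each have 1 mismatch, shown as the lower-case base, and are given 5′ to 3′ on the strand of the gene. They are shown because they are the matches to 2 adjoining decamers found among these genes, and they were picked after the search. Decamers with bases between them were searched only without mismatch.
Cdkn1a, chr17:29090928-29090947, plus strand: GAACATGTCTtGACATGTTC
Ccng1, chr11:40755462-40755481, minus strand: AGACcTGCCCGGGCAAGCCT
Gtse1, chr15:85859945-85859964, plus strand: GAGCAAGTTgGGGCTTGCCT
Rps27l, chr9:66946296-66946315, plus strand: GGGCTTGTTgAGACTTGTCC
None of these 4 genes passed the test between TMX and con. Of the 9 genes that did, Aen and Sesn1 had a decamer in a window, and Plk2, Plk3, Sesn2, Pidd1, Eda2r, Epha2 and Cd82 had none. A match is a run of letters in this window and not a shown binding site, and known p53 sites of many targets lie outside such windows.

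Among the 32 genes, 7 rose in TMX, 2 fell and 23 did not pass the test of the authors' deposited table. The share called was 28.1%, beside 12.3% of all tested genes. In the upward direction it was 21.9%, beside 6.60% of all tested genes, and downward 6.25%, beside 5.70%, so the downward share is near the background. The 32 genes are all protein-coding. Adjusted over the 12516 tested protein-coding genes alone, the background was higher, with 15.3% called, 8.03% higher in TMX and 7.31% lower. The calls among the 32 genes were the same. The genes that rose were Plk2, Plk3, Aen, Epha2, Sesn2, Pidd1 and Eda2r, and those that fell were Sesn1 and Cd82. The log2 fold change, on the scale of FPKM plus 1, was above 0 for 24 genes and below 0 for 8, with a median of 0.68, beside 0.05 for all tested genes. When each condition was scaled to the same summed FPKM, the median of all tested genes moved to 0.23 and that of the 32 genes to 0.80, with 27 above 0 and 5 below. The genes were picked with earlier results of these data known, so these shares and medians are descriptions.

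**Figure D1:**
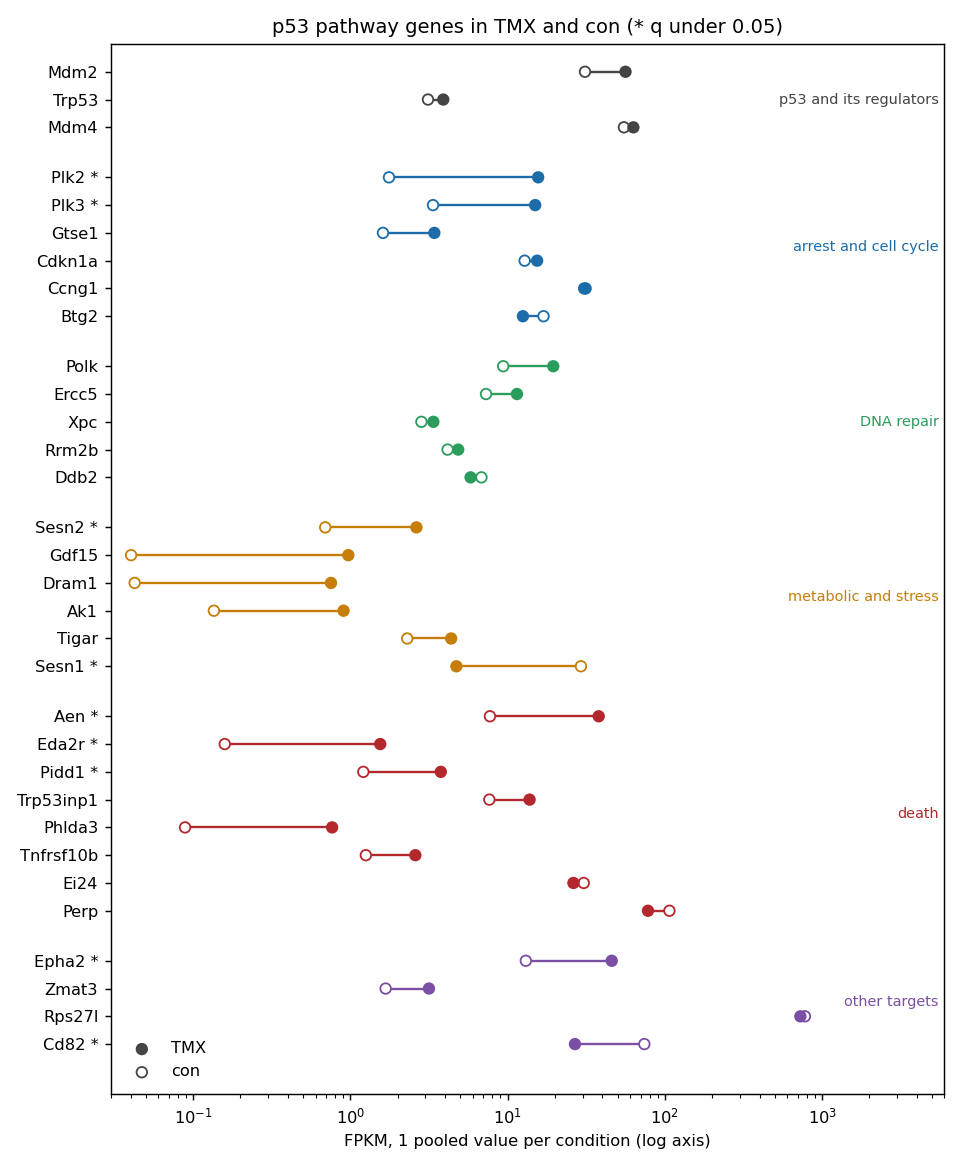
FPKM of each of the 32 genes (log axis) in TMX (filled) and con (open), grouped by role, with an asterisk at genes with a q-value under 0.05 in the authors' deposited table. Rps27l is highest at 727 FPKM in TMX and 777 FPKM in con, and Plk2, at 15.6 FPKM in TMX and 1.76 FPKM in con, has the widest gap of the arrest genes.

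Markers of other cell types differed between the conditions in the same table, in which 6.60% of all tested genes were called higher and 5.70% lower. Of 14 myeloid markers, 10 rose and none fell by the calls of the authors' deposited table, with a summed level of 453 FPKM in TMX and 16.3 FPKM in con, and 11 were higher at an unadjusted p under 0.05. Ly6g was listed at 0 in con, and no myeloid marker was at 0 in TMX. Of 11 tested stromal, endothelial and muscle markers, 7 rose and none fell, and the 13 listed markers summed to 203 FPKM in TMX and 19.3 FPKM in con in the authors' deposited table. T and NK cell markers went the other way, with 5 of 11 tested lower and none higher and a sum over 12 markers of 59.0 FPKM in TMX and 349 FPKM in con in the authors' deposited table. Of 14 epithelial markers, 1 rose and 2 fell, and they summed to 2259.8 FPKM in TMX and 3816 FPKM in con in the authors' deposited table, so epithelial transcripts were abundant in both. Among 6 tested B and plasma cell markers none was called, and 1 was higher and none lower in the authors' deposited table at p under 0.05 before adjustment. The part of these cell types in the levels below was not tested, and in bulk RNA a change in cell number and a change in RNA per cell cannot be told apart.

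The transcripts of p53, Mdm2 and Mdm4 were not called. Trp53 (chr11:69580359-69591873, plus strand, GRCm38) stood in the authors' deposited table at 3.90 FPKM in TMX and 3.11 FPKM in con (log2 fold change 0.25, q = 0.784). Mdm2 (chr10:117688875-117710758, minus strand), the ubiquitin ligase that p53 induces against itself, stood in the authors' deposited table at 56.2 FPKM in TMX and 31.1 FPKM in con. Its TMX level was 1.81 times the con level and passed the test in the authors' deposited table before adjustment (p = 0.0210) but not after it (q = 0.122). Mdm4, which blocks transactivation by p53, stood in the authors' deposited table at 63.1 FPKM in TMX and 54.9 FPKM in con (q = 0.895). Of these 3 genes, all had a log2 fold change above 0, none was called, and 1 was higher at an unadjusted p under 0.05. Mdm2 and Mdm4 had far more transcript per length than Trp53 in either condition.

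Among 6 arrest and cell cycle genes, the polo-like kinase genes Plk2 and Plk3 rose and none fell by the calls of the authors' deposited table. Plk2 (chr13:110395046-110400844, plus strand), a stress-inducible kinase of centrosome and cell cycle control, stood in the authors' deposited table at 15.6 FPKM in TMX and 1.76 FPKM in con, 8.89 times the con level. The highest log2 fold change of the 32 genes in the authors' deposited table was that of Plk2, 2.59 (q = 0.00112). Plk3 (chr4:117128655-117133963, minus strand), a related stress kinase, stood in the authors' deposited table at 15.0 FPKM in TMX and 3.35 FPKM in con (log2 fold change 1.88, q = 0.00112). No gene has a lower q-value than these kinases in the authors' deposited table, and 704 tested genes share it. The locus that the table gives for Plk3 is wider than the annotated gene, which overlaps Tctex1d4 on the other strand, so its FPKM is less certain. Cdkn1a (chr17:29090976-29100727, plus strand), which encodes the cyclin-dependent kinase inhibitor p21, stood in the authors' deposited table at 15.4 FPKM in TMX and 12.8 FPKM in con (q = 0.766). The TMX level of this classic arrest target was 1.20 times the con level and did not pass the test. Ccng1, or cyclin G1, stood in the authors' deposited table at 30.7 FPKM in TMX and 31.3 FPKM in con (q = 0.977). The antiproliferative gene Btg2 stood in the authors' deposited table at 12.5 FPKM in TMX and 16.9 FPKM in con (q = 0.415). Gtse1, a microtubule-associated protein of G2 phase that restrains p53, stood in the authors' deposited table at 3.42 FPKM in TMX and 1.61 FPKM in con (p = 0.0194, q = 0.116). The class had a median log2 fold change of 0.50.

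The authors' test called none of the 5 DNA repair genes, and 1 was higher in the authors' deposited table before adjustment, at p under 0.05. That gene was Polk, a polymerase that copies past damaged bases, which the authors' deposited table puts at 19.5 FPKM in TMX and 9.37 FPKM in con (p = 0.0296, q = 0.155). Ercc5, the XPG endonuclease of nucleotide excision repair, stood in the authors' deposited table at 11.5 FPKM in TMX and 7.29 FPKM in con (q = 0.414). Xpc and Ddb2 encode damage sensors of the same repair pathway. Xpc stood in the authors' deposited table at 3.37 FPKM in TMX and 2.83 FPKM in con (q = 0.786). Ddb2 stood in the authors' deposited table at 5.81 FPKM in TMX and 6.81 FPKM in con (q = 0.918). Rrm2b, the p53-inducible subunit of ribonucleotide reductase, which supplies deoxynucleotides, stood in the authors' deposited table at 4.85 FPKM in TMX and 4.15 FPKM in con (q = 0.872). The median log2 fold change of the repair class was 0.19, the lowest of the 6 classes.

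Of the sestrin genes, Sesn2 rose and Sesn1 fell, and Sesn3, which is not among the 32 genes, did not pass the test. Sestrins are stress-inducible proteins that restrain the growth kinase complex mTORC1. Sesn1 (chr10:41809935-41908424, plus strand) stood in the authors' deposited table at 4.72 FPKM in TMX and 29.3 FPKM in con (log2 fold change -2.40, q = 0.00112). Sesn2 (chr4:132492032-132510501, minus strand) stood in the authors' deposited table at 2.63 FPKM in TMX and 0.692 FPKM in con (log2 fold change 1.10, q = 0.00897). Sesn3 stood in the authors' deposited table at 5.04 FPKM in TMX and 4.53 FPKM in con (log2 fold change 0.13, q = 0.927). Per length, Sesn1 was above Sesn2 in both conditions, with the wider gap in con. Sesn1 had the largest fall of the 32 genes, and its log2 fold change stayed below 0 at each pseudocount and scaling tried.

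The 4 other metabolic, autophagy and stress genes were not called in the authors' deposited table. Tigar, which lowers glycolytic flux by hydrolysing fructose bisphosphate, stood in the authors' deposited table at 4.37 FPKM in TMX and 2.30 FPKM in con (p = 0.0168, q = 0.104). Gdf15, a secreted stress cytokine, stood in the authors' deposited table at 0.970 FPKM in TMX and 0.0403 FPKM in con (q = 0.551). The autophagy gene Dram1 stood in the authors' deposited table at 0.753 FPKM in TMX and 0.0424 FPKM in con (q = 0.455). Ak1, an adenylate kinase, stood in the authors' deposited table at 0.905 FPKM in TMX and 0.135 FPKM in con (q = 0.410). These last 3 genes were under 1 FPKM in both conditions, and their plain ratios of TMX over con, 24.1 for Gdf15, 17.7 for Dram1 and 6.68 for Ak1, rest on con values close to 0. The class median of 0.75 on the log2 scale moved to 1.94 when a pseudocount of 0.1 FPKM replaced that of 1 FPKM. In the whole class 1 gene rose and 1 fell, and 5 of 6 had a log2 fold change above 0.

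Death genes held 3 of the 7 rises, which is 37.5% of the class, beside 6.60% of all tested genes. Of 8 genes, Aen, Pidd1 and Eda2r rose and none fell by the calls of the authors' deposited table. Aen (chr7:78895854-78911209, plus strand), a nuclease that p53 induces and that promotes apoptosis, stood in the authors' deposited table at 38.0 FPKM in TMX and 7.72 FPKM in con (log2 fold change 2.16, q = 0.00355). Pidd1 (chr7:141438113-141444025, minus strand), the scaffold of the complex that activates caspase 2, stood in the authors' deposited table at 3.76 FPKM in TMX and 1.21 FPKM in con (log2 fold change 1.11, q = 0.0222). The call of Pidd1 was lost at a q under 0.01 and when p-values were adjusted over all listed genes. Eda2r (chrX:97333840-97377216, minus strand), a receptor of the TNF receptor family for the ectodysplasin isoform A2, stood in the authors' deposited table at 1.55 FPKM in TMX and 0.159 FPKM in con (log2 fold change 1.14). Its q-value of 0.0494 was just under the threshold, and the call was lost over genes with a mean of at least 1 FPKM, a filter that leaves Eda2r out, and under both settings that lost Pidd1.

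The other 5 death genes did not pass the test, 3 of them higher in value in TMX and 2 lower. Trp53inp1, a stress protein that promotes p53 phosphorylation, stood in the authors' deposited table at 13.8 FPKM in TMX and 7.65 FPKM in con (p = 0.0131, q = 0.0871), the lowest q-value among those of the 32 genes that were not called. The TRAIL receptor gene Tnfrsf10b stood in the authors' deposited table at 2.59 FPKM in TMX and 1.25 FPKM in con (p = 0.0476, q = 0.212). Phlda3, which represses the survival kinase Akt, stood in the authors' deposited table at 0.765 FPKM in TMX and 0.0888 FPKM in con (q = 0.543). Perp, a membrane protein that epithelia also need for desmosomes, was the most abundant of the class, which the authors' deposited table puts at 78.1 FPKM in TMX and 107 FPKM in con (q = 0.446). Ei24, a protein of the endoplasmic reticulum, stood in the authors' deposited table at 26.2 FPKM in TMX and 30.5 FPKM in con (q = 0.845). The median log2 fold change of the death class was 0.74, with 6 of 8 above 0, and it was 1.27 at a pseudocount of 0.1 FPKM.

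Of 4 targets outside these roles, 1 rose and 1 fell by the calls of the authors' deposited table. Epha2 (chr4:141301240-141329384, plus strand), an ephrin receptor tyrosine kinase of epithelial cells, stood in the authors' deposited table at 45.9 FPKM in TMX and 13.1 FPKM in con (log2 fold change 1.74, q = 0.00112). Cd82 (chr2:93419111-93463140, minus strand), a tetraspanin that restrains cell migration, stood in the authors' deposited table at 26.8 FPKM in TMX and 74.0 FPKM in con (log2 fold change -1.43, q = 0.00200). The locus given for Cd82 is wider than the annotated gene, which overlaps Gm10804 on the other strand. Zmat3, an RNA-binding zinc finger protein, stood in the authors' deposited table at 3.16 FPKM in TMX and 1.68 FPKM in con (p = 0.0158, q = 0.0999). Rps27l, a ribosomal protein paralog that p53 induces, stood in the authors' deposited table at 727 FPKM in TMX and 777 FPKM in con (q = 0.945). Rps27l has a close paralog, Rps27, and no source used here says how shared reads were divided.

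**Figure D2:**
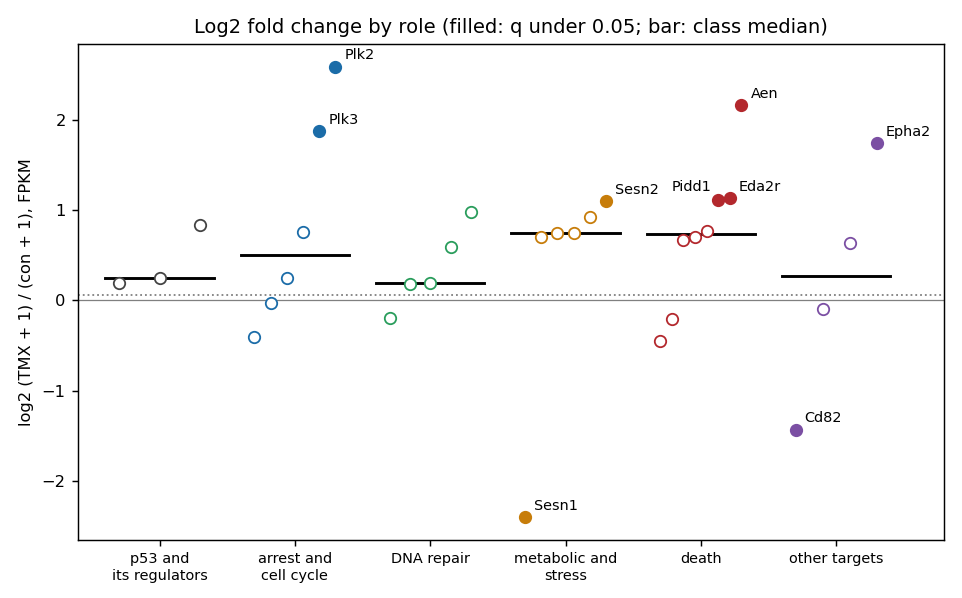
Log2 fold change of TMX over con, on the scale of FPKM plus 1, for each gene by role, with genes called at a q under 0.05 filled and named, class medians as bars and the median of all tested genes (0.05) as a dotted line. Calls lie in the arrest, metabolic, death and other classes, and the class medians run from 0.19 for repair to 0.75 for metabolic and stress genes.

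Set side by side, 2 of 6 arrest genes and 3 of 8 death genes rose in the authors' deposited table. Of 6 metabolic genes 1 rose and 1 fell, and none of 5 repair genes was called. Of all tested genes, 6.60% were called higher and 5.70% lower, so the lack of calls among 5 repair genes is near these shares. Before adjustment, at p under 0.05, 3 of 6 arrest genes, 1 of 5 repair genes, 2 of 6 metabolic genes and 5 of 8 death genes were higher in TMX, and 1 metabolic gene was lower, by the p-values of the authors' deposited table. Over all 32 genes, 14 were higher and 2 lower at that level, beside 12.1% and 10.7% of all tested genes. The 7 that joined were Gtse1, Mdm2, Polk, Tigar, Tnfrsf10b, Trp53inp1 and Zmat3, each higher in TMX with a plain ratio between 1.80 and 2.12. With 3 to 8 genes a class, the differences between classes were not tested.

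Ranked by mean FPKM, the 32 genes ran from percentile 0.72 (Dram1) to percentile 99.4 (Rps27l) of the tested genes. By the mean of the conditions, 5 genes (Dram1, Phlda3, Gdf15, Ak1 and Eda2r) lay under 1 FPKM, 13 between 1 and 10 FPKM, 13 between 10 and 100 FPKM, and Rps27l above. The 5 lowest had the highest plain log2 ratios apart from Plk2, from 2.74 to 4.59 against 3.15 for Plk2, and Eda2r alone of them was called, as higher, beside 8.60% higher and 1.63% lower of all tested genes under 1 FPKM. In con they were between 0.0403 and 0.159 FPKM in the authors' deposited table. Between 1 and 10 FPKM, 4 of 13 rose and none fell, beside 7.01% higher and 3.66% lower of all tested genes in that band. Between 10 and 100 FPKM, 2 of 13 rose and 2 fell, beside 5.52% higher and 8.76% lower.

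**Figure D3:**
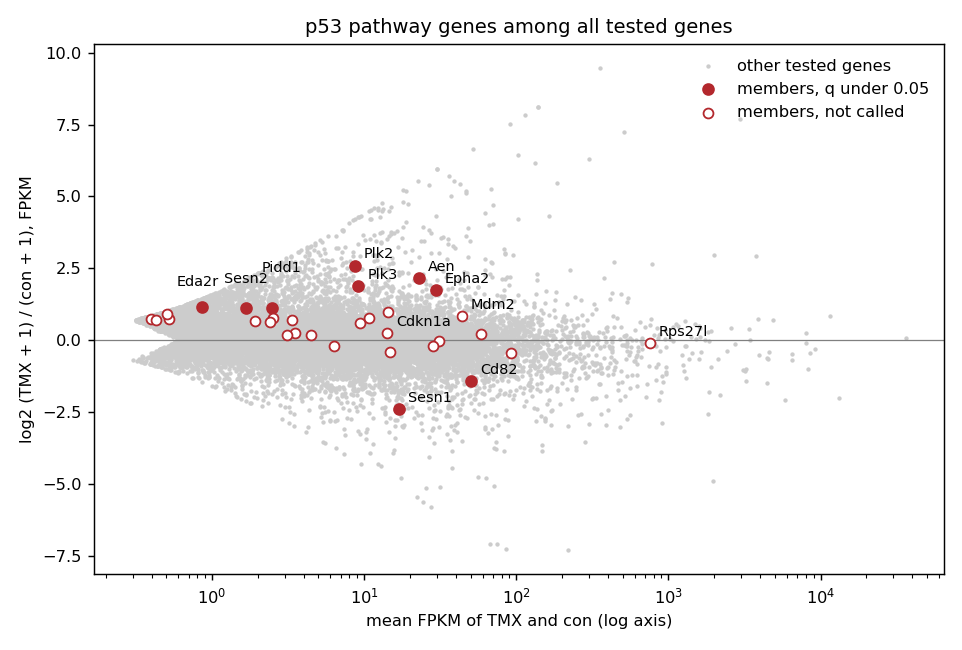
Log2 fold change of TMX over con (FPKM plus 1) against the mean FPKM of the conditions (log axis) for all 15762 tested genes in grey and the 32 p53 pathway genes in red, filled where called. Among the 32 genes, Plk2, Aen, Plk3 and Epha2 stand highest and Sesn1 and Cd82 lowest, and Mdm2, Cdkn1a and Rps27l lie among the bulk of the genes.

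Of 20 further p53 targets, 19 were tested, and the authors' deposited table has calls for 5, with 3 higher in TMX and 2 lower. These shares, 15.8% and 10.5%, stand beside 6.60% and 5.70% of all tested genes, and the median log2 fold change was 0.21. Ephx1, an epoxide hydrolase, rose and stood in the authors' deposited table at 4.55 FPKM in TMX and 1.14 FPKM in con (q = 0.0141). Pml, the organiser of nuclear bodies, also rose and stood in the authors' deposited table at 26.4 FPKM in TMX and 10.8 FPKM in con (q = 0.0266). Bbc3, which encodes the proapoptotic protein PUMA, rose and stood in the authors' deposited table at 1.54 FPKM in TMX and 0.266 FPKM in con (q = 0.0465). Fas, a death receptor, fell and stood in the authors' deposited table at 4.14 FPKM in TMX and 15.4 FPKM in con (q = 0.00112). Steap3, a metalloreductase, also fell, which the authors' deposited table puts at 0.215 FPKM in TMX and 1.34 FPKM in con (q = 0.0111). The death genes Bax (q = 0.810), Pmaip1 (q = 0.439), Apaf1 (q = 0.941) and Bid (q = 0.975) were tested and not called. Neither were the arrest genes Gadd45a (q = 0.816) and Sfn (q = 0.382).

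Of 19 kinases and modifiers of p53, 18 were tested, 1 rose and none fell, and 2 were higher in the authors' deposited table at p under 0.05 before adjustment. The gene that rose was Ppp1r13l, which encodes the p53 inhibitor iASPP, which the authors' deposited table puts at 1.37 FPKM in TMX and 0.284 FPKM in con (q = 0.0334). The share called higher, 5.56%, is near the 6.60% of all tested genes. The p53 relatives were near the floor of the table and untested, Trp63 at 0.0266 FPKM in TMX and listed at 0 in con, and Trp73 at 0.0976 FPKM in TMX and 0.00359 FPKM in con, in the authors' deposited table.

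**Figure D4:**
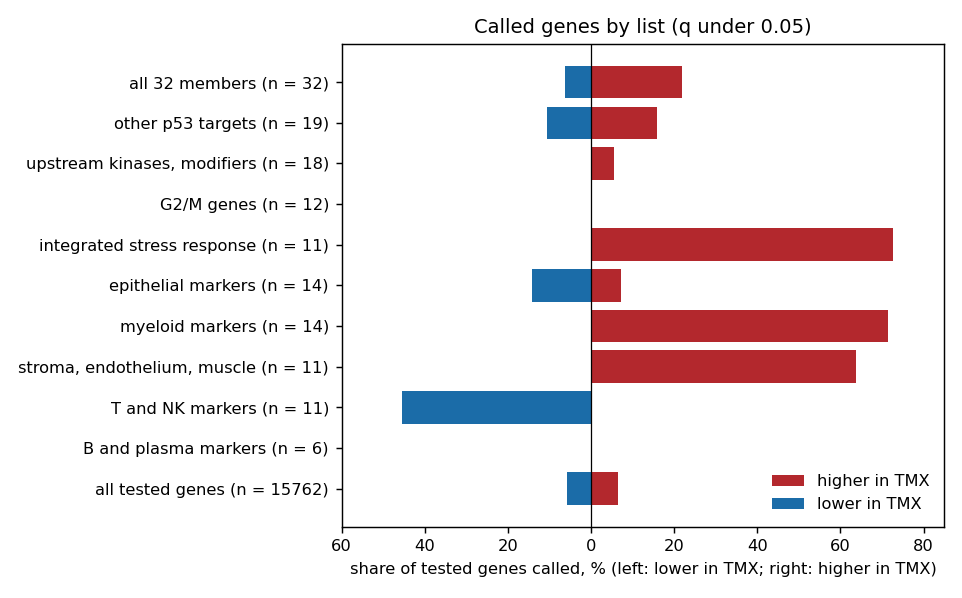
Share of tested genes (%) called higher (right) and lower (left) in TMX at a q under 0.05 in the authors' deposited table, for the 32 genes, other gene lists, markers of cell types and all tested genes. The 32 genes reach 21.9% higher and 6.25% lower, all tested genes 6.60% and 5.70%, and myeloid markers 71.4% higher.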

How the data were processed

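Total RNA of ileal crypts was sequenced in 6 libraries, 3 Adar iΔgut and 3 Adar fl/fl, grouped by their titles. STAR, Cufflinks and the build GRCm38 are named, per the submitters' processing notes, with no versions or parameters named. Per the file headers, the authors gave 1 FPKM per gene and condition, with p-values and q-values and a test statistic, which is a score. The deposited log2 fold change equalled log2 of TMX plus 1 over con plus 1, and Benjamini-Hochberg adjustment of the deposited p-values of the 15762 genes tested (status OK) gave the q-values. The deposited signed score is the negative log10 p with the sign of the change. With 1 value per condition, a planned test over libraries could not be made, no interval is given, and replicate pairing could not be checked. No source used here says which libraries the authors' test used.

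The 60 genes with status HIDATA were left out of all but the summed FPKM. All 55446 identifiers were found in the GENCODE annotation of GRCm38 (release vM21), whose 1-based coordinates are printed. For 6 of the 32 genes the table's locus was wider than the annotated gene, and 9 overlap an annotated gene on the other strand, whose reads cannot be told apart without strand information. The 32 genes, their 6 roles and 10 other lists were chosen with earlier results of these data known. All 32 genes are named, and of other lists at most 4 called genes by absolute log2 fold change. For the further p53 targets, all 5 called genes and some uncalled death and arrest genes are given. Ddit3, on more than 1 identifier, was left out of counts. The Benjamini-Hochberg step was tested on simulated data. Alternatives were other adjustment sets, thresholds, pseudocounts and scalings. Tables were handled with pandas 2.3.3 and numpy 2.4.6 under Python 3.11.15, and figures drawn with matplotlib 3.10.9.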

Additional observations from a re-analysis of the deposited data

How the results depend on the processing

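The count of 9 called genes (7 higher, 2 lower) was 8 when p-values were adjusted over genes with a mean of at least 1 FPKM, which leaves out Eda2r. Of all genes in that set, 12.7% were called. Over protein-coding genes alone the count was 9, beside 15.3% of those genes. With the status ignored, the count was 7, beside 2.32% of all listed genes. At a q under 0.01 it was also 7, beside 7.35% of all tested genes. Eda2r and Pidd1 were lost under both of these settings. At an unadjusted p under 0.05 the count was 16, with 14 higher and 2 lower, beside 22.8% of all tested genes. Among genes whose locus equals the annotated gene, a choice made after seeing the data, 7 were called, 6 higher and 1 lower, because Plk3 and Cd82 were left out. The median log2 fold change of 0.68 ranged from 0.59, over genes with a mean of at least 1 FPKM, to 0.88, at a pseudocount of 0.01 FPKM that was also chosen after seeing the data. At that pseudocount the class median was 2.28 for metabolic and stress genes and 1.33 for death genes. At a pseudocount of 0.1 FPKM, 6 genes, all higher in TMX, moved by over 1.5 times, and with equal summed FPKM the uncalled Ccng1, Ei24 and Rps27l changed sign.

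Of the further p53 targets, calls lower in TMX went to 1 over genes with a mean of at least 1 FPKM and at a q under 0.01, and calls higher went to 1 with the status ignored and 0 at a q under 0.01. The upstream list had 0 genes higher under those 3 settings and 2 at an unadjusted p. At a q under 0.01, 3 T and NK markers were lower. At an unadjusted p under 0.05, epithelial markers had 2 higher and 8 lower, and B and plasma markers 1 higher. Leaving out replicates was not run, because each condition has 1 value per gene. No paired analysis was possible because the table holds no value per library. FPKM values carry no depth, so how far depth limits the low genes is unknown.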

Other observations

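Of 12 tested genes of the G2 and M phases, none was called in the authors' deposited table, beside 12.3% of all tested genes. None was higher or lower at an unadjusted p under 0.05, beside 22.8% of all tested genes. Their median log2 fold change was 0.12, with a summed level of 289 FPKM in TMX and 268 FPKM in con in the authors' deposited table. With 12 genes, the difference from these shares was not tested.

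The integrated stress response is the program that follows phosphorylation of eIF2α. The authors' deposited table called 8 of its 11 tested genes higher and none lower, which is 72.7% higher, beside 6.60% of all tested genes, with a median log2 fold change of 1.45. The cystine transporter gene Slc7a11 stood in the authors' deposited table at 15.8 FPKM in TMX and 1.03 FPKM in con (log2 fold change 3.05). Chac1, which degrades glutathione, stood in the authors' deposited table at 13.1 FPKM in TMX and 0.924 FPKM in con (log2 fold change 2.87). The lipoprotein receptor gene Vldlr was at 12.7 FPKM in TMX and 2.75 FPKM in con and the transcription factor gene Atf3 at 88.3 FPKM in TMX and 23.5 FPKM in con in the authors' deposited table. Each of these 4 had a q-value of 0.00112. Sesn2 and Gdf15 are known to respond to this program as well as to p53, and the part of each program in their levels was not tested.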
